A study of Mus musculus with 10 samples.

Results

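The genes described here encode the protein subunits of the 2 ribosomes of a mouse cell, the cytosolic ribosome (83 genes with Rpl and Rps names) and the mitochondrial ribosome (78 genes with Mrpl and Mrps names). They were picked by symbol alone: protein-coding entries named Rpl or Rps with a number, Rplp0 to Rplp2 and Rpsa made the cytosolic family, entries named Mrpl or Mrps with a number made the mitochondrial family, and each Ensembl gene ID was counted once. That gave 161 genes of the 40481 in the deposited count table. RNA came from dorsal root ganglia (DRG), the clusters that hold the cell bodies of sensory neurons together with satellite glia, Schwann cells, vessels and immune cells. Oxaliplatin is a platinum compound of cancer chemotherapy. The 5 treated libraries were from C57BL/6 mice given this compound at 10 mg/kg, and the 5 control libraries were from C57BL/6 mice given vehicle. Ganglia were taken after 8 weeks of treatment, and only RNA that passed an integrity threshold was sequenced. The labels do not state age, sex, dosing schedule or whether each library was 1 animal, and p-values therefore measure only the spread between these libraries, which may be technical. The design asks how chronic oxaliplatin alters gene expression in the ganglion.

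Cytosolic ribosomes translate the mRNAs of nuclear genes. Many of their proteins come from mRNAs that begin with a terminal oligopyrimidine (TOP) run, a stretch of C and T through which mTOR and Larp1 tune translation and mRNA stability. Mitochondrial ribosomes sit in the matrix and translate the few mRNAs of the mitochondrial genome, all for respiratory chain and ATP synthase subunits; their RNAs are made in the mitochondrion and their proteins in the cytosol. Sensory neurons carry long axons with high energy demand, and platinum drugs are known to damage both nuclear and mitochondrial DNA. A few cytosolic proteins have a second gene. Rpl22l1 is the second gene for Rpl22, an RNA-binding large-subunit protein that is known in mice to repress Rpl22l1.

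Among the ribosomal protein genes, the smallest p belonged to Rpl22l1 of the Rpl22 and Rpl22l1 pair, so the pair's most alike coding stretch is shown first. Sequences are from GENCODE M21 transcripts, 5′ to 3′, with bases identical between both genes in capitals.

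Rpl22, coding bases 219 to 308: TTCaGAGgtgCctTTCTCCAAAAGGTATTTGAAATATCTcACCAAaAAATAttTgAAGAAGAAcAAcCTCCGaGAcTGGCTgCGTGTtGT

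Rpl22l1, coding bases 201 to 290: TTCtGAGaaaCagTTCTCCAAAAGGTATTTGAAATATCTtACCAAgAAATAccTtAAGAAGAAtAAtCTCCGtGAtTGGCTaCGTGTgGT

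Over 90 bases 73 were identical, and over the 366 aligned coding positions 257 were identical (70.2%). The longest run of identical bases was 26, and the 2 coding sequences shared no run of 50. The other pairs ranged from 57.3% identity for Rpl7 and Rpl7l1 to 85% for Rpl39 and Rpl39l. Rps27 and Rps27l were 75.3% identical over 251 aligned positions, from coding sequences of 252 and 315 bases. The longest annotated coding sequence of each gene was used, and other transcripts could give other values.

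The start regions show what the families share beyond their names. RefSeq promoter windows (GRCm38.p6, 250 bases before to 50 after the start) were matched by symbol for 63 of the 83 cytosolic genes and for 68 of the 77 mitochondrial symbols. A TOP-like run was taken as the letters CTTTTC, or in their place CTTTCC, or as the third form TCTTTC, on the sense strand within 20 bases of the start. It was present in 30.2% of the cytosolic genes, 2.94% of the mitochondrial genes and 5.15% of all 27025 genes with a promoter window. The ETS letters CCGGAAG, on either strand, were in 41.3% of the cytosolic genes, 36.8% of the mitochondrial genes and 9.93% of all genes with a window. The YY1 letters AAGATGGC were in 9.52%, 17.6% and 3.19%, and the NRF1 letters GCGCANGCG in 15.9%, 23.5% and 7.03%, in the same order. The TOP-like alternatives can overlap each other, as in Rpl4. Each gene was counted once, as a match if any of its promoter windows matched. A match describes letters only, and other runs of C and T near the start were not counted. The windows printed here run from 50 bases before to 30 after the start. They are from Rpl4, an abundant cytosolic gene, from Rpl22l1 and Mrpl36, the 2 genes that passed the test described below, and from Mrpl34. Capitals mark a searched motif, which is the TOP-like run in Rpl4, YY1 on the opposite strand in Mrpl36 and ETS in Mrpl34.

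Rpl4, chr9:64173337-64173416, strand +: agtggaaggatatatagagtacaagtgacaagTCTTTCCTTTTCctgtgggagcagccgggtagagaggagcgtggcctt

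Rpl22l1, chr3:28805458-28805537, strand +: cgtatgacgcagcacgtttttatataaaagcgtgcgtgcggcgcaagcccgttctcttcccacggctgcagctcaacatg

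Mrpl36, chr13:73330959-73331038, strand +: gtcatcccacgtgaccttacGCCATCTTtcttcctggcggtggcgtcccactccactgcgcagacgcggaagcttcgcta

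Mrpl34, chr8:71464876-71464955, strand +: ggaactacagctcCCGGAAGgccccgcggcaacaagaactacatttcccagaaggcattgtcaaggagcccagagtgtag

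The whole Rpl22l1 promoter window held none of the letter patterns searched, and that of Mrpl36 held YY1 alone. A missing match does not show that a TOP run is absent. In the printed Rpl22l1 window, a run of C and T without the searched letters lies just after the start.

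Libraries held 52963470 to 60984426 counts, and levels are given as CPM, counts scaled to a common library size with totals corrected by TMM factors. The sensory neuron markers, 11 genes, summed to 20303 to 27383 CPM, and none of these genes was at 0 throughout. Between groups their sums did not overlap, at 20303 to 23182 after oxaliplatin against 23528 to 27383 with vehicle. By edgeR the neurofilament genes Nefh, Nefm and Nefl (3 of 11) were lower, against 0.772% lower and 1.27% higher of all genes tested. Mean levels differed most in Nefl (2952 CPM against 4212 with vehicle), Nefm (2541 against 3799) and Tubb3 (8167 against 9412). The neuron markers that did not pass had log2 fold changes from -0.20 ± 0.06 (Tubb3) to 0.09 ± 0.06 (Prph). Of all 11, 8 were below 0. Endothelial marker sums ran from 62.8 to 72.8 CPM after oxaliplatin and from 43.6 to 63.0 with vehicle, with 2 of 6, Pecam1 and Cdh5, higher. Other markers past the threshold were Glul (higher) and Fabp7 (lower) of satellite glia, Cx3cr1 (lower) of macrophages, Kcnj8 (higher) of pericytes and Pdgfra (higher) of fibroblasts, while the summed levels of these 4 lists overlapped between groups. Lymphocyte markers were low, at 2.75 to 4.48 CPM against 4.78 to 6.62, and oxaliplatin library 1 stood out in fat cell markers, at 674 CPM. Skeletal muscle marker sums ran from 89.1 to 457 CPM with vehicle. After oxaliplatin library 1 was above this range, at 670 CPM, and all other treated libraries were below it, down to 7.59 CPM. No skeletal muscle marker passed the threshold. Nuclear-retained RNAs, of which Meg3 and Neat1 (2 of 8) were higher, summed to 8944 to 11435 CPM against 7868 to 8809. The part of these shifts in the results below was not tested. In bulk RNA, fewer cells of a type and less RNA per cell cannot be told apart.

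Ribosomal protein mRNAs made up a steady slice of each library. The cytosolic family took 1.92 to 2.27% of all counts and the mitochondrial family 0.447 to 0.528%. Summed over all 83 genes, the cytosolic level in the oxaliplatin libraries 1 to 5 was 19731, 19472, 20620, 20896 and 21291 CPM, and in the vehicle libraries 19585, 19054, 23310, 20747 and 23128 CPM. Vehicle libraries 3 and 5 were the highest, and the other 3 lay inside or below the oxaliplatin range. The group means were 20402 ± 774 and 21165 ± 1974 CPM (SD, n = 5), a difference of -0.05 on the log2 scale that was smaller than the vehicle SD.

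The mitochondrial sum had the same 2 high libraries. It was 4417, 4720, 4726, 4661 and 4720 CPM after oxaliplatin and 4784, 4488, 5339, 5024 and 5380 CPM with vehicle. The 2 groups overlapped through vehicle library 2, and the means were 4649 ± 132 and 5003 ± 377 CPM (SD, n = 5), a log2 difference of -0.10. The ratio of the cytosolic to the mitochondrial sum cancels what both share: it was 4.47, 4.13, 4.36, 4.48 and 4.51 after oxaliplatin and 4.09, 4.25, 4.37, 4.13 and 4.30 with vehicle. Its means of 4.39 ± 0.158 and 4.23 ± 0.114 (SD, n = 5) differed by 0.163, about the size of the spread within a group. No p is given for these sums.

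**Figure D1:**
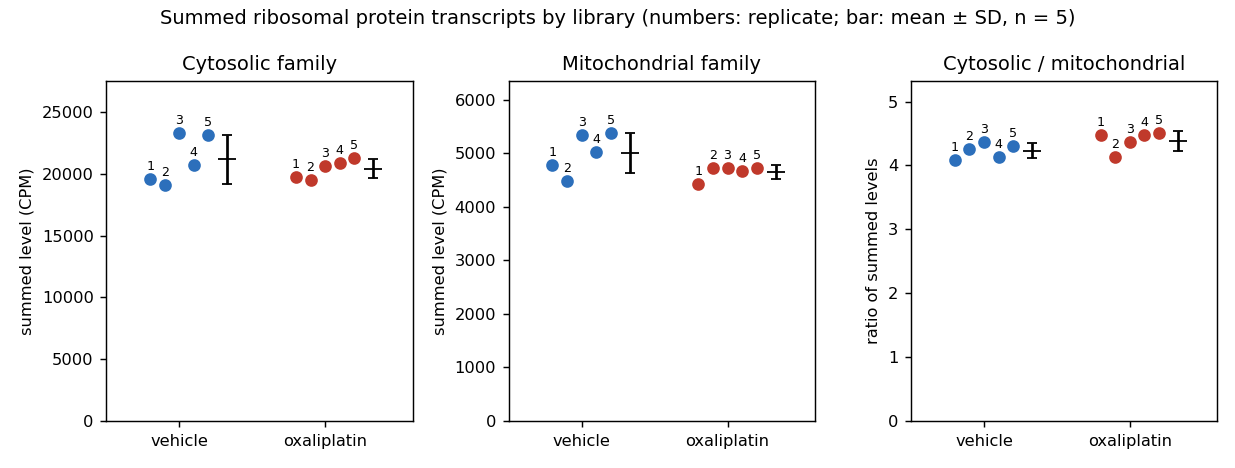
Summed level (CPM) of the 83 cytosolic genes, of the 78 mitochondrial genes, and the ratio of both sums, for each of the 5 vehicle (blue) and 5 oxaliplatin (red) libraries; digits give the replicate number and the bar gives mean ± SD. Vehicle libraries 3 and 5 stand highest in both sums, and the 2 groups overlap in all 3 panels.

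Gene by gene, 1 member of each family passed the threshold. Of the 81 cytosolic genes with enough counts to test, 1 fell after oxaliplatin and none rose by edgeR's quasi-likelihood test at an adjusted p under 0.05, against 0.772% lower and 1.27% higher (2.04% in either direction) of all 18401 genes tested. Of 76 mitochondrial genes tested, 1 fell and none rose. At an unadjusted p under 0.05, 8 cytosolic and 16 mitochondrial genes were lower and none higher, where 7.80% of all genes tested were lower and 8.51% higher. No member rose under DESeq2 or limma voom either. Levels without any overlap between groups were found for 1 cytosolic gene, Rpl22l1, and for 3 mitochondrial genes, Mrpl36, Mrpl50 and Mrps23, all lower, against 1.77% of all genes lower and 2.25% higher in this way; Mrpl50 and Mrps23 are named after their values were seen. The precision was good enough to bound most members: for 79 of 81 cytosolic and 74 of 76 mitochondrial genes the whole 95% interval lay within 1.5-fold either way, as it did for 61.6% of all genes. The 4 exceptions, named after their values were seen, were Rpl22l1, Rpl3l, Mrpl3 and Mrps24. The 4 untested genes, with too few counts, were Rpl10l, Rpl39l, Mrpl53 and a second gene ID for Mrps23 with 0 counts.

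The small fitted differences leaned to one side. In the cytosolic family 69 of 81 genes were below 0, with a median log2 fold change of -0.06 (quartiles -0.11 and -0.02), and in the mitochondrial family 67 of 76, with a median of -0.09 (quartiles -0.14 and -0.04). Over all genes tested 49.0% were below 0 and the median was 0.01. Among cytosolic genes the large subunit had 46 of 49 below 0 (median -0.06) and the small subunit 23 of 32 (median -0.04). Among mitochondrial genes these were 44 of 47 (median -0.09) and 23 of 29 (median -0.07). Typical standard errors, 0.07 for the cytosolic and 0.08 for the mitochondrial genes, were about as large as the medians.

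The lean differed in size with the libraries included and with the way of fitting. Vehicle libraries 3 and 5 held the highest level of 75 of the 81 cytosolic and 63 of the 76 mitochondrial genes. With all libraries but vehicle 3, 48 cytosolic and 59 mitochondrial genes were below 0, and with all but vehicle 5, 51 and 59. With all but vehicle 1 the counts were 75 and 68, and with all but vehicle 2, which was the lowest of all 10 libraries for 43 cytosolic and 26 mitochondrial genes, they were 72 and 70. With all but vehicle 4 they were 72 and 68. Treated libraries mattered too: with all but oxaliplatin 1 the counts were 60 and 64, and with all but oxaliplatin 2, 59 and 68. With all but oxaliplatin 3, 4 or 5 they were 71 and 64, 72 and 69, and 72 and 68. Fitted without both vehicle 3 and 5, 17 of 81 cytosolic genes were below 0 with a median of 0.05, and 48 of 76 mitochondrial genes with a median of -0.03. As these 2 libraries were picked for their high member levels after the data were seen, a rise in the fold changes without them follows from the choice, and the values are given as a description. Without a composition factor, which moved the median of all genes to 0.04, the counts were 51 and 60. With all libraries kept, they were 47 and 58 with 1 surrogate variable, and 51 and 63 with limma voom.

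**Figure D2:**
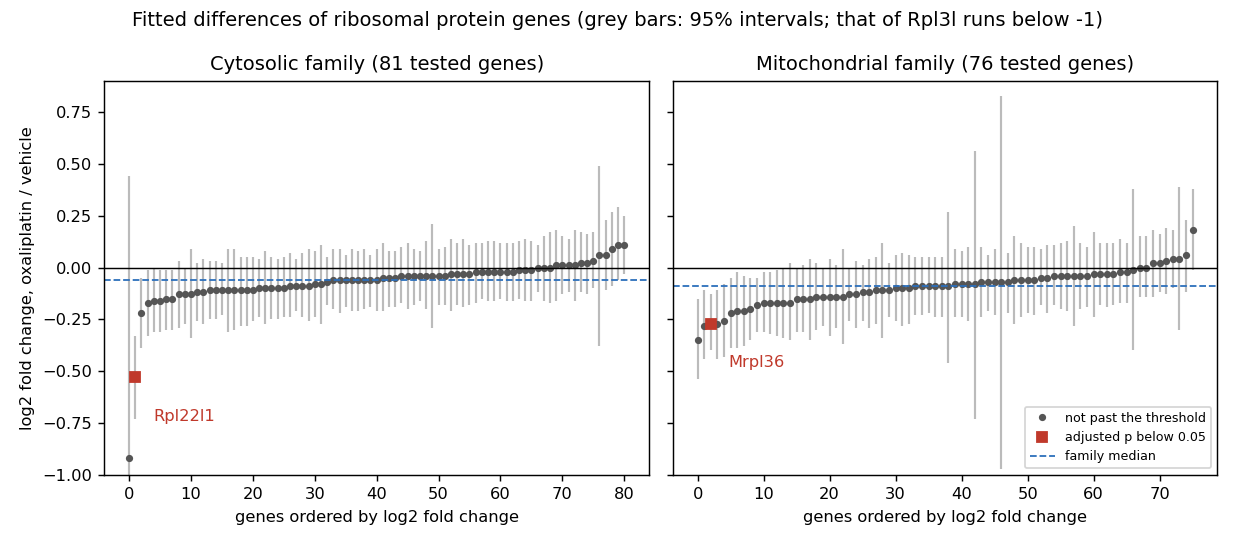
Log2 fold change of each tested gene, ordered within its family, with its 95% interval (grey), for 81 cytosolic and 76 mitochondrial genes; red squares passed the threshold. Rpl22l1 and Mrpl36 are the only red squares, most points lie just below 0, and the wide intervals belong to low or uneven genes such as Rpl3l, Mrpl3 and Mrps24.

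**Figure D3:**
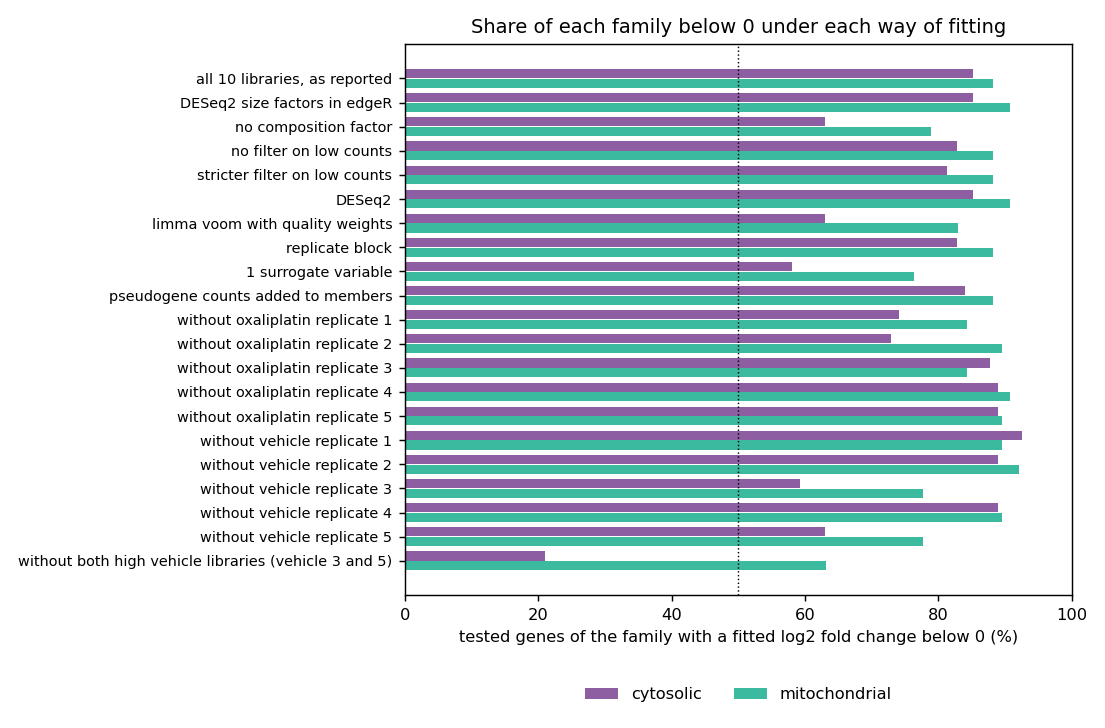
Share of tested genes of each family with a fitted log2 fold change below 0 (x axis, %) under each way of fitting (y axis). Bars shorten most when vehicle library 3 or 5 is left out, without a composition factor, with limma voom and with 1 surrogate variable. The cytosolic bar also shortens, by less, when oxaliplatin library 1 or 2 is left out. With both vehicle libraries 3 and 5 left out the cytosolic bar drops below the dotted line at 50%.

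Rpl22l1 (ENSMUSG00000039221) fell after oxaliplatin. Its level was 38.1, 34.3, 45.5, 42.0 and 40.6 CPM in the oxaliplatin libraries and 50.6, 49.5, 62.5, 61.3 and 65.3 CPM in the vehicle libraries. Every treated library was below every vehicle library, including the high libraries 3 and 5 and the low library 2. The means were 40.1 ± 4.21 and 57.8 ± 7.28 CPM (SD, n = 5), a log2 fold change of -0.53 ± 0.09 (SE; 95% interval -0.73 to -0.33), or 0.694 times the vehicle level, with adjusted p = 0.0113 by edgeR. The gene passed in all 20 other fits tried, with log2 fold changes from -0.58 to -0.42 and adjusted p from 4.79e-05 to 0.0439; the smallest change and the largest p came without vehicle libraries 3 and 5. Counts ran from 2007 to 3602 per library, and the table's genes that share a 50-base coding run with it held 0.715% of its counts.

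For Rpl22 itself, which encodes the main form of the protein, no difference was detected. It was at 117, 106, 121, 121 and 116 CPM after oxaliplatin and 106, 111, 132, 113 and 114 CPM with vehicle, with a log2 fold change of 0.01 ± 0.07 (95% interval -0.13 to 0.15). Set against its partner within each library, Rpl22l1 had 32.6, 32.5, 37.7, 34.7 and 34.9 counts per 100 counts of Rpl22 after oxaliplatin and 47.5, 44.5, 47.4, 54.3 and 57.2 with vehicle. The means were 34.5 ± 2.13 and 50.2 ± 5.31 (SD, n = 5), and the groups did not overlap. This ratio needs no scaling between libraries; it was computed after the fall was seen and carries no test.

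**Figure D4:**
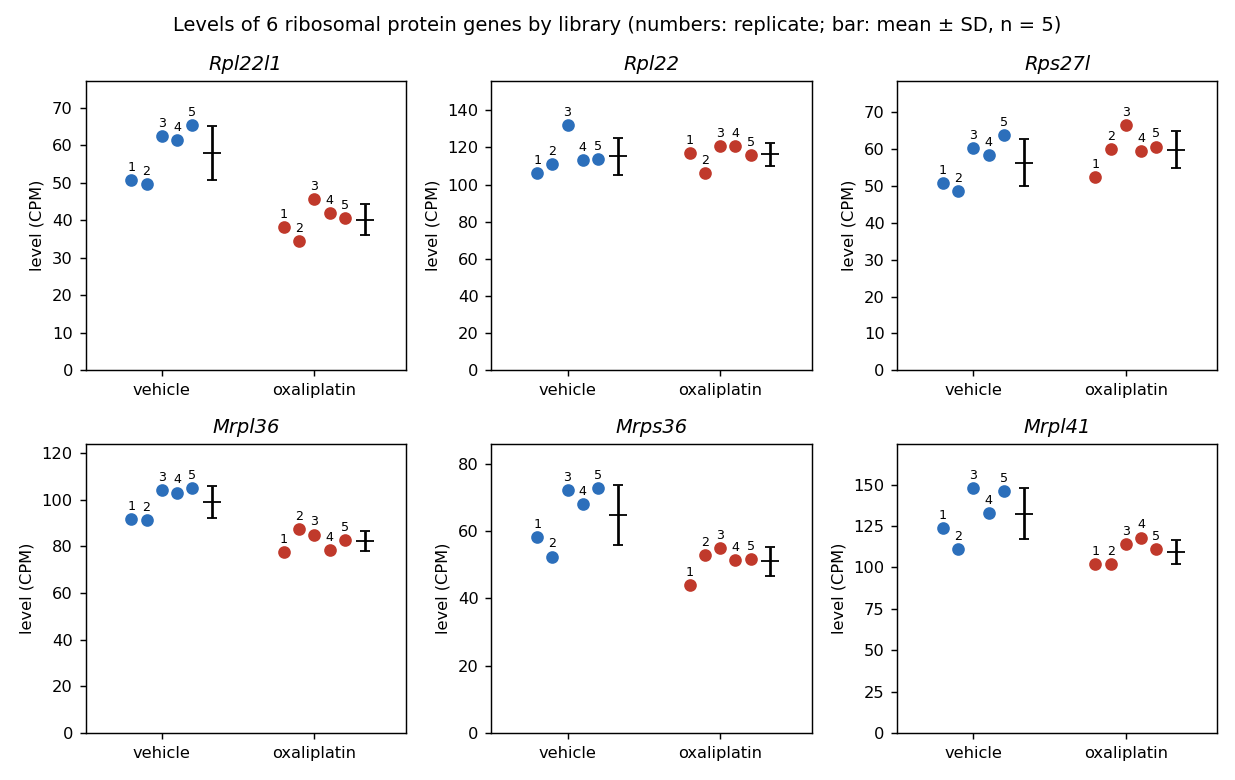
Level (CPM) of 6 genes in each vehicle (blue) and oxaliplatin (red) library, with replicate numbers and mean ± SD. Rpl22l1 and Mrpl36 separate by group, Rpl22 and Rps27l overlap throughout, and Mrps36 and Mrpl41 overlap through vehicle library 2.

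The remaining second genes did not pass. Rps27l, a known p53 target that pairs with Rps27, was at 52.5, 60.1, 66.5, 59.5 and 60.7 CPM after oxaliplatin and 50.7, 48.7, 60.2, 58.4 and 63.7 CPM with vehicle, with overlapping groups and a log2 fold change of 0.09 ± 0.08 (adjusted p = 0.660, edgeR). Its partner Rps27 had a log2 fold change of 0.11 ± 0.08, and Rps27l made 31.6 ± 3.49 counts per 100 counts of Rps27 after oxaliplatin and 32.1 ± 0.908 with vehicle. Rpl7l1, which pairs with Rpl7, stood at 102 ± 3.69 and 103 ± 2.57 CPM, with a 95% interval for its log2 fold change from -0.12 to 0.11. Rpl3l, the muscle form of Rpl3, had only 3 to 86 counts and a log2 fold change of -0.92 with a 95% interval from -2.28 to 0.44. Its highest treated value, 1.36 CPM, was in oxaliplatin library 1. There the summed skeletal muscle markers were also the highest of the treated group (670 CPM, with the lowest at 7.59 CPM in library 2). With vehicle these sums ran from 89.1 to 457 CPM, above every treated library except library 1. The part of muscle RNA in the Rpl3l difference was not tested. Rpl39l had 0 to 11 counts and Rpl10l, a testis form, had 0 in every library, where 3 counts in the smallest library would be 0.0566 CPM. The listed paralog Rps4l is a processed pseudogene in the table and no member of the family; it had a log2 fold change of -0.03 ± 0.12 beside -0.04 ± 0.06 for Rps4x.

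Among cytosolic genes that did not pass, the lowest p after Rpl22l1 belonged to Rpl12, a protein at the base of the stalk. Rpl12 was at 80.7, 80.2, 91.9, 85.5 and 94.3 CPM after oxaliplatin and 95.7, 83.9, 108, 103 and 114 CPM with vehicle, with a log2 fold change of -0.22 ± 0.08 and adjusted p = 0.171 by edgeR. Vehicle library 2 lay inside the treated range, and genes with which Rpl12 shares 50-base coding runs held 10.6% of its counts. Next came Rps20 of the small subunit (-0.15 ± 0.07) and Rpl29 of the large subunit (-0.16 ± 0.07), both at adjusted p = 0.275. On the upper side stood Rps19, the first gene linked to Diamond-Blackfan anaemia (0.11 ± 0.07), Rps27 and Rps28 (0.06 ± 0.08), none with an unadjusted p under 0.05.

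The most abundant cytosolic transcripts by CPM did not pass the test. Rpl3, which reaches toward the peptidyl transferase centre, was at 970 ± 56.1 CPM after oxaliplatin and 1045 ± 80.2 with vehicle (SD, n = 5; log2 fold change -0.11 ± 0.06). Rpl4 was at 701 ± 24.9 and 723 ± 54.7 CPM (-0.04 ± 0.06). Rplp0, the scaffold of the P stalk that recruits elongation factors, was at 672 ± 28.6 and 698 ± 69.8 CPM (-0.05 ± 0.06). The 2 stalk dimers followed with -0.11 ± 0.07 for Rplp1 and -0.12 ± 0.07 for Rplp2. None of these 5 intervals excluded 0. Per kilobase of the longest annotated coding sequence the order changes: Rpl41, the shortest, led with 2616 CPM per kilobase. Its level is uncertain, as the gene that shares a 50-base coding run with it held 44.3% as many counts. The family median was 483 CPM per kilobase against 93 for the mitochondrial family.

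Genes for proteins with a signalling role did not pass either. Rpl5 and Rpl11, which with 5S RNA can bind and block Mdm2 when ribosome assembly fails, had log2 fold changes of -0.09 ± 0.06 and -0.06 ± 0.07. Rps27a, made as a fusion with ubiquitin, had -0.08 ± 0.08, and Rps6, the classic target of S6 kinase, 0.01 ± 0.06 with a 95% interval from -0.12 to 0.14.

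In the mitochondrial family Mrpl36 (ENSMUSG00000021607), the counterpart of the small bacterial protein L36, fell. It was at 77.3, 87.4, 85.0, 78.5 and 82.6 CPM after oxaliplatin and 91.6, 91.1, 104, 103 and 105 CPM with vehicle. No treated library reached a vehicle library, though the nearest, 87.4 and 91.1 CPM, were close. The means were 82.2 ± 4.28 and 99.0 ± 6.99 CPM (SD, n = 5), a log2 fold change of -0.27 ± 0.06 (SE; 95% interval -0.40 to -0.13), with adjusted p = 0.0400 by edgeR. This call was fragile: it held in 9 of 20 other fits, with log2 fold changes of -0.29 to -0.21 and adjusted p from 0.00696 to 0.135. It was lost in 8 of the 10 fits that left out 1 library, all except those without oxaliplatin 2 and vehicle 2, where it reached up to 0.130, and at 0.135 without vehicle libraries 3 and 5. No other gene shares a 50-base coding run with Mrpl36.

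Other mitochondrial genes came close to the threshold and did not pass. Mrps36, named as a ribosomal protein but known as a linker subunit of the 2-oxoglutarate dehydrogenase complex, was at 43.9, 52.9, 54.9, 51.3 and 51.6 CPM after oxaliplatin and 58.2, 52.4, 72.1, 68.1 and 72.8 CPM with vehicle. Its log2 fold change was -0.35 ± 0.09 with adjusted p = 0.0651 by edgeR, and vehicle library 2 lay inside the treated range. Mrpl41, a large-subunit protein found in mitochondrial and not in bacterial ribosomes, was at 102, 102, 114, 118 and 111 CPM and at 124, 111, 148, 133 and 146 CPM, with -0.28 ± 0.08 and adjusted p = 0.0808. Mrpl34 was at 36.1, 40.5, 40.6, 38.1 and 41.7 CPM and at 45.1, 41.0, 48.9, 49.0 and 54.0 CPM, with -0.27 ± 0.08 and adjusted p = 0.0867. In all 3 genes vehicle library 2 was the lowest vehicle library. These 3 passed together with Mrpl36 under DESeq2, without vehicle library 2 and with replicate numbers as a block, and Mrps36 also passed with no filter on low counts and under limma voom.

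Mrpl12, the stalk protein that is also known to bind the mitochondrial RNA polymerase, had a log2 fold change of -0.22 ± 0.08 (adjusted p = 0.167, edgeR), and its stalk partner Mrpl10 -0.09 ± 0.07. Mrps18b was the highest on the upper side, at 20.4 ± 0.945 CPM after oxaliplatin and 18.0 ± 2.11 with vehicle (0.18 ± 0.09, adjusted p = 0.334); its relatives Mrps18a (-0.07 ± 0.07) and Mrps18c (-0.08 ± 0.08) lay on the other side of 0. Mrpl58, a hydrolase that frees stalled chains, had -0.11 ± 0.06. Mrpl44 and Mrpl45, which lies at the exit tunnel, had -0.13 ± 0.07 and 0.00 ± 0.07. The most abundant by CPM were Mrpl28 (169 ± 5.17 and 188 ± 24.2 CPM), Mrps18a (151 ± 8.13 and 158 ± 14.8) and Mrpl20 (121 ± 5.92 and 134 ± 11.8), with overlapping groups in each case.

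Other lists of translation genes gave no call by edgeR. The TOP genes outside the ribosome had 0 of 14 called (median log2 fold change -0.01), and the control genes, with Mtor, Larp1, Tsc1 and Mdm2 among them, 0 of 12 (median 0.01). On the mitochondrial side the ribosomal proteins with other names had 0 of 5 (median -0.11), translation factors 0 of 10 (-0.12), assembly factors 0 of 15 (-0.03) and genes that control mitochondrial transcription 0 of 11 (-0.06). The 13 mitochondrial mRNAs, the templates of the mitochondrial ribosome, had 0 called (median -0.11), and its RNAs mt-Rnr1 and mt-Rnr2 had -0.09 ± 0.09 and -0.05 ± 0.08. At an unadjusted p under 0.05 these lists, in the same order and with the 2 mitochondrial RNAs last, held 2, 1, 1, 3, 2, 0, 2 and 0 genes, against 16.3% of all genes tested in either direction. DESeq2 called Tsc1 higher and Ptcd3 and Tufm lower, and limma voom called Ptcd3, Tufm, Mrrf and mt-Cytb lower; over all genes these tools called 5.07% and 4.37%. Tufm, the elongation factor of mitochondrial translation, had a log2 fold change of -0.28 ± 0.08 and adjusted p = 0.0712 by edgeR; Ptcd3, a small-subunit protein, had -0.24 ± 0.07 and adjusted p = 0.110. Tsc1, Ptcd3, Tufm, Mrrf and mt-Cytb are named after their values were seen.

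Processed copies limit what single cytosolic values mean. A 50-base coding run is shared with another gene by 80 of the 83 cytosolic genes and by 28 of the 77 mitochondrial genes with a coding sequence, so reads could be split or dropped depending on how the counting treated them. Rows named as pseudogenes of members held 2.27 to 2.62% as many counts as the members. Rpl24, a core protein of the large subunit, had only 55 to 84 counts, while the genes that share its sequence held 822.6 on average in sum, so its level is uncertain. Mrpl53 had 0 counts in every library, and the gene that shares its sequence had 28.1 on average. With counts of rows named as pseudogenes added to their members, Rpl22l1 and Mrpl36 were still the only calls. No such row was named for either gene, so their own counts stayed the same. That fit therefore does not check these calls for copies.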

How the data were processed

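Total RNA of dorsal root ganglia from 10 mouse samples, 5 after oxaliplatin and 5 after vehicle, was sequenced. Per the labels' protocols, a magnetic bead kit served for RNA extraction and a SMARTer kit for the libraries. The deposited table holds the authors' raw read counts per Ensembl gene; per the submitters' processing notes the tools included STAR 2.5.1a, Partek and DESeq2, whose roles are not named. Build, annotation, counting step and strand setting: not given in the sources used here. Reads of near-identical copies, and of overlapping or antisense genes, therefore cannot be assigned with certainty. The table had 40757 rows for 40481 gene IDs; 167 IDs were repeated with identical counts and 276 extra rows were dropped. Within groups, every pair of libraries differed beyond sampling noise, with 11.9 to 49 as the chi-square divided by its degrees of freedom.

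Differences were tested on all 18401 genes kept by filterByExpr with edgeR 4.0.16 (R 4.3.3): TMM scaling, no covariates, robust quasi-likelihood fitting, and p-values adjusted by Benjamini-Hochberg across all of these genes, with 0.05 as the threshold. The biological coefficient of variation was 19.3%. The SE is the size of the log2 fold change over the square root of F. CPM uses TMM-scaled totals. The script was checked on simulated data. Alternatives were other size factors, no composition factor, no filter, a filter of 1 CPM in 5 libraries, DESeq2 1.42.0, limma 3.58.1 voom with quality weights, replicate number as a block, 1 surrogate variable (sva 3.50.0), a threshold of 0.1, pseudogene counts added to members, and each library left out. The members and lists were chosen with earlier results of these data known. Named were members past the threshold, in each family the 4 of smallest p in each direction and the 3 of highest CPM, members of fixed role lists, and list genes past the threshold. The fit without vehicle libraries 3 and 5, the 50-base copy check, the paralog count ratios, the count of highest libraries and the choice of sequences shown came after the data were seen. Promoters are from RefSeq (GRCm38.p6). Coding sequences are from GENCODE M21, where the longest among the basic protein-coding transcripts of each gene was taken. Protein features were planned and not computed, and coding length and coding identity stand in for them.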

Additional observations from a re-analysis of the deposited data

Results flagged for a closer look

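In 4 named genes and 1 sum, a single library stood apart from the other 4 of its group by Dixon's criterion at 95%; chance alone flags about 1 in 20 groups. Rpl3 was at 1184 CPM in vehicle library 3, with the other vehicle libraries between 987 and 1038. Rpl3l was at 1.36 CPM in oxaliplatin library 1 against 0.0501 to 0.376 in the rest of that group. Rps4x was at 214 CPM in oxaliplatin library 2 against 223 to 226. Mrpl58 was at 84.3 CPM in oxaliplatin library 3 against 74.2 to 76.1. The summed mitochondrial level was 4417 CPM in oxaliplatin library 1 against 4661 to 4726.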

How the results depend on the processing

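Rpl22l1 was lower and passed in all 20 other fits. The count of cytosolic genes lower was 1 in all alternatives except the replicate block, where it was 2, with Rpl12 added (adjusted p = 0.0419 by edgeR). The count of mitochondrial genes lower, 1 as reported, was 4 with DESeq2, the replicate block and a threshold of 0.1, 2 with no filter and with limma voom, and 0 with no composition factor, with 1 surrogate variable and without vehicle libraries 3 and 5; with 1 library left out it ran from 0 to 4. Over all genes, 234 higher and 142 lower became 514 and 408 with DESeq2, 439 and 365 with limma voom, 382 and 278 with the replicate block and 424 and 304 at a threshold of 0.1; 88 were lower with 1 surrogate variable, and with 1 library left out 79 to 343 were higher and 34 to 251 lower. Without a composition factor 75.4% of calls were higher, against 62.2%. What a replicate number shared by both groups stands for is not stated, and the numbers were not taken to pair the samples: same-number correlations of deviations were 0.09, -0.04, 0.21, -0.02 and 0.15, and 3 of 5 libraries correlated best with their own number. Members lower without overlap were 1 mitochondrial gene with no composition factor, and with 1 library left out 1 to 2 cytosolic and 2 to 13 mitochondrial genes (13 without vehicle 2), where 1.17% of all genes were lower in this way with no composition factor, 2.08 to 3.64% with 1 library left out and 3.39% without vehicle 2; without vehicle libraries 3 and 5, 3 genes of each family were higher without overlap, beside 5.55% of all genes, which says nothing about the members. In that fit the cytosolic median and the log2 difference of the cytosolic sums both turned to 0.05. As said above, a rise without these 2 libraries follows from their choice. Signs of genes near 0 turned in 46 of 879 refits, for 15 genes, none with an adjusted p under 0.572. Without vehicle libraries 3 and 5 these were Rps4l (0.12), Rpl7 (0.08), Rps4x (0.06), Rplp0 (0.05), Rpl4 and Rpl11 (0.03), Rpl7l1 and Rps27a (0.02), and Mrps18a, Rpl10 and Rpl39 (0.00). With no composition factor Rpl7l1 turned to 0.03, Rpl7 to 0.02 and Rps4l to 0.00; with limma voom Rps4l turned to 0.06, Rpl7 to 0.02 and Rpl7l1 to 0.01; with 1 surrogate variable Rps4l turned to 0.05 and Rpl7l1 to 0.01. With 1 library left out the signs turned within these ranges: Rps4l -0.11 to 0.11, Rpl7 -0.05 to 0.04, Rpl7l1 -0.02 to 0.01, Rpl4 -0.07 to 0.00, Rps4x -0.08 to 0.00, Rps6 -0.01 to 0.06, Rpl22 -0.02 to 0.07, Mrpl45 -0.04 to 0.05 and Mrpl23 -0.00 to 0.09. Mrpl45 also turned to -0.00 with DESeq2 and its size factors, and Rpl7l1 to 0.00 with no filter and the stricter filter. Depth limits only Rpl3l, Rpl24, Mrps30 and the 4 untested genes.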

Other observations

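Mrpl3 and Mrps24, 2 mitochondrial ribosomal proteins with wide intervals, were low in the library numbered 3 of both groups; they were picked after their values were seen. Mrpl3 was at 13.3 CPM in oxaliplatin library 3 and 13.5 CPM in vehicle library 3, while the other 8 libraries ran from 25.9 to 31.8 CPM. Mrps24 was at 6.75 and 7.24 CPM in the same 2 libraries, at 13.5 CPM in vehicle library 4 and between 18.2 and 25.7 CPM in the other 7. Their log2 fold changes between groups were -0.08 ± 0.29 and -0.07 ± 0.39, so the spread inside each group was far wider than the difference between them. The pattern was not theirs alone. Mrps26 (15.7 CPM after oxaliplatin and 17.5 CPM with vehicle) and Mrps34 (13.9 and 18.4 CPM) were also lowest of each group in library 3, by smaller margins.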
